A study of Homo sapiens with 47 samples.

Results

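The 7 genes described here encode the secreted ligands, the coreceptor, the extracellular inhibitors and the nuclear partner of the Nodal branch of TGF-β signalling: *NODAL*, *GDF3*, *TDGF1*, *LEFTY1*, *LEFTY2*, *CER1* and *FOXH1*. They were chosen by name, and all 7 were found among the 58051 genes listed for each of 47 RNA-seq libraries. All libraries came from WA09 (H9), an established human embryonic stem cell line. Undifferentiated cells (t0) were grown in mTESR1. Cells at 36 h, labelled neuromesodermal progenitor (NMP)-like, had been moved to N2B27 without vitamin A containing Y-27632 (a ROCK inhibitor), AGN193109 (a retinoic acid receptor inverse agonist), recombinant FGF2 and CHIR-99021 (a GSK3 inhibitor that activates WNT signalling). The replated cultures were kept in the same 4 agents and sampled at passages P1 to P10, where they are labelled pre-neural progenitors (PNPs) and neural crest (NC). At P5 and P8 the cultures were also separated by selective detachment into fractions enriched for epithelial cells (EPI, labelled PNPs) and mesenchymal cells (MES, labelled NC). The 16 conditions held 3 libraries each, numbered r1 to r3 for 3 differentiations, except P9, which had 2. For P9 only r1 and r2 were analysed here.

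Nodal and its relative GDF3 are secreted ligands that bind activin receptors, and Nodal needs the membrane-anchored coreceptor Cripto, the product of *TDGF1*. The activated receptors phosphorylate SMAD2 and SMAD3, which act on DNA together with SMAD4 and partners such as FOXH1. LEFTY1, LEFTY2 and CER1 are secreted inhibitors, and the LEFTY genes are themselves targets of the pathway. In human pluripotent cells this signalling helps to maintain the undifferentiated state, and in the embryo it patterns the primitive streak, mesendoderm and the left-right axis.

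In GENCODE 29 (GRCh38) all 7 are protein-coding. *NODAL* lies on chromosome 10 (chr10:70432315-70447951, minus strand), *GDF3* on chromosome 12 (chr12:7689782-7695776, minus), *TDGF1* on chromosome 3 (chr3:46574534-46582463, plus) and *CER1* on chromosome 9 (chr9:14719724-14722717, minus). *LEFTY1* (chr1:225886282-225911382, minus) and *LEFTY2* (chr1:225936598-225941489, minus) are neighbours on chromosome 1. *NODAL* shares 41.2% of its exon bases with the antisense entry AC022532.1. Whether counting used strand was not given in the sources used here, so in that stretch reads of both partners may not be told apart.

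The sequence just before a start site in the RefSeq table of GRCh38.p14 promoters is shown for *NODAL*, *GDF3*, *CER1* and *TDGF1*. That table has no entry for *LEFTY1* or *LEFTY2*, and *FOXH1* was not looked up. The windows are given because FOXH1 is both a member and a DNA-binding partner of the pathway. Each window runs 5′ to 3′ on the gene's strand, from 250 bases before the start site up to the first annotated exon base, and capitals mark matches to AATNCACA, a FOXH1 motif, searched on both strands.
NODAL (chr10:70441682-70441931, minus): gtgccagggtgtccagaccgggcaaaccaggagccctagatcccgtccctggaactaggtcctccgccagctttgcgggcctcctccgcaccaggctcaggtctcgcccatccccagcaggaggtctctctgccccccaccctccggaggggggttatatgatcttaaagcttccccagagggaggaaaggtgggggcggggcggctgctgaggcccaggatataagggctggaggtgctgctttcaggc
GDF3 (chr12:7695777-7696025, minus): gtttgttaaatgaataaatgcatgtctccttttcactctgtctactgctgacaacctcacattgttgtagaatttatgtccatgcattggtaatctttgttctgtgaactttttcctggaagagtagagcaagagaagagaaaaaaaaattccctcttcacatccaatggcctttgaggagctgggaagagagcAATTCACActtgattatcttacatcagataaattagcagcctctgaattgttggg
CER1 (chr9:14722734-14722983, minus): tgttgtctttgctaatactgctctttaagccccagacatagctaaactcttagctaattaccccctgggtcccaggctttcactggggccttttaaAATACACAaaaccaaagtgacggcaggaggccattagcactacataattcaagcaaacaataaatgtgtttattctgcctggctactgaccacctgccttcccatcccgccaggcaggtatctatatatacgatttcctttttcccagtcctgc
TDGF1 (chr3:46574285-46574533, plus): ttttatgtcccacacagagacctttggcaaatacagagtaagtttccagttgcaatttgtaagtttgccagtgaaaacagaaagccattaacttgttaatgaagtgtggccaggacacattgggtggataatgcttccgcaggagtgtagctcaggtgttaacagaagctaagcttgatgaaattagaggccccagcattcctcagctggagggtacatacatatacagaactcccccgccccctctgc
The *GDF3* window held AATTCACA beginning 56 bases before the start site, and the *CER1* window held AATACACA beginning 154 bases before it. The motif was present in 1014 of 35116 promoter windows of 250 bases (2.89%). The *NODAL* and *TDGF1* windows held no match to these letters. The part of FOXH1 in the changes of these genes was not tested. CAGAC, a SMAD-binding sequence searched on both strands, occurred in the *NODAL* and *CER1* windows and in 38.0% of all windows. RefSeq lists a further *TDGF1* start site inside an annotated exon, which is not shown. The *NODAL* window lies within the GENCODE span of the gene (chr10:70432315-70447951, minus), and the bases before the 5′ end of that span were not searched.

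Library totals ran from 13029491 to 64082859 expected counts (median 47292229). The labels were checked against marker genes. *POU5F1*, a pluripotency factor, lay between 1569 and 1749 TPM (transcript abundance as a share of the library, scaled by transcript length) at t0. In P1 it was 863 TPM in r1 against 18.7 and 5.07 TPM in r2 and r3, so the P1 r1 library stood apart. In P2 it was 23.7 TPM in r1 against 0.39 and 0.51 TPM, and *TBXT*, which marks the primitive streak and NMPs, was 145 TPM against 30.5 and 6.27 TPM, so the P2 r1 library stood apart too. In P10, *SOX2*, a neural and pluripotency factor, was 214 TPM in r1 and at most 0.71 TPM in r2 and r3. Of 6 neural crest markers, *SOX10*, *SNAI1*, *SNAI2* and *TFAP2B* were higher in the MES than in the EPI fraction of every pair. *SOX9* in r1 and r2 and *FOXD3* in r2 were higher in EPI at P8. The summed level of the 6 ran from 42.2 to 111 TPM in P5 EPI and from 138 to 284 TPM in P5 MES. At P8 the fractions overlapped, and the pairs had no common direction. The sum was higher in MES in r1 (171.7 against 79.17 TPM) and r3 (602.5 against 440.4 TPM). In r2 it was 230.8 TPM in MES and 259.7 TPM in EPI. In whole-culture RNA, fewer cells of a type and less RNA per cell cannot be told apart.

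**Figure D1:**
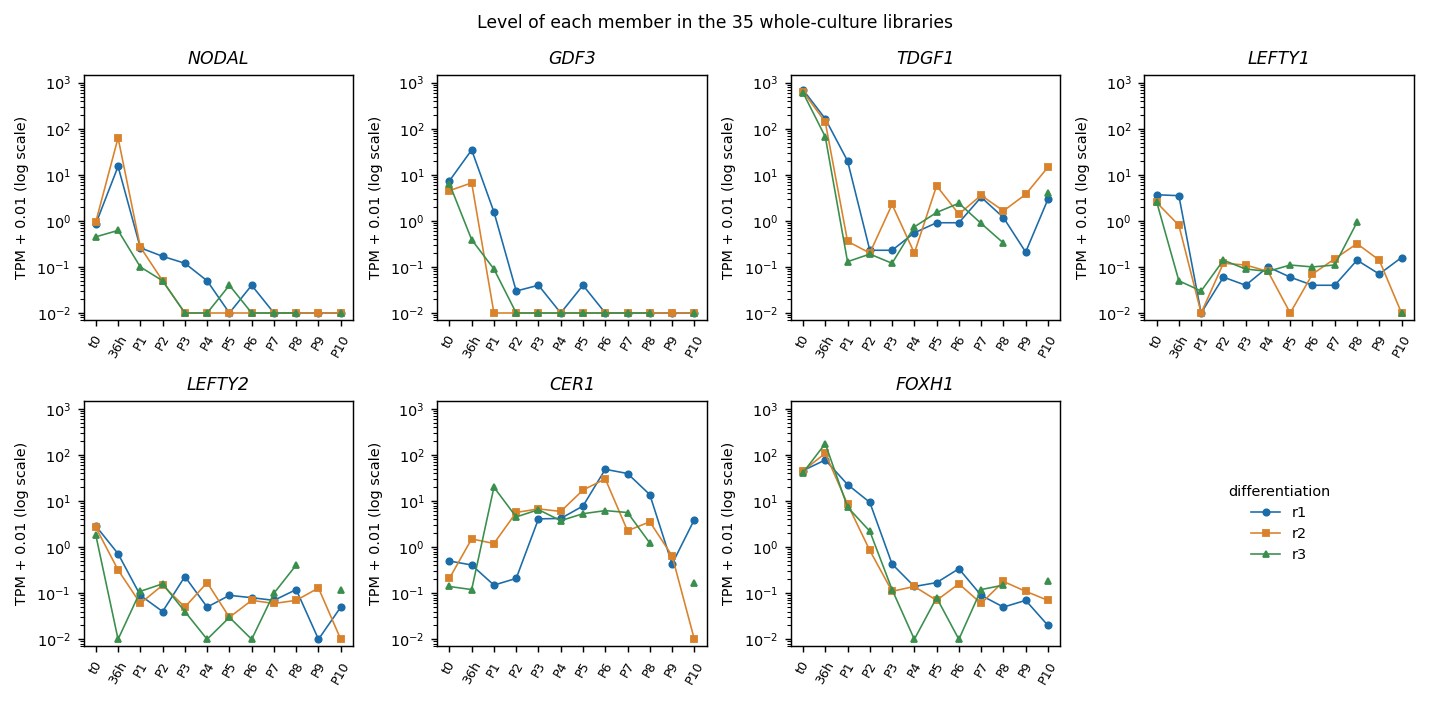
TPM plus 0.01 on a log axis in each of the 35 whole-culture libraries (t0 to P10), 1 panel per gene and 1 line per differentiation; r3 has no P9 point. *TDGF1* began between 607 and 704 TPM, *NODAL* and *GDF3* were read at or near 0 from P2 onward, and *CER1* was highest at P1 or later in each line.

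The ligands had their highest levels early in the time course. *NODAL* was read at 0.85, 0.94 and 0.44 TPM in r1, r2 and r3 at t0, and at 15.2, 63.3 and 0.61 TPM at 36 h. The 36 h libraries of r1 and r2 lay far above every t0 library, whereas that of r3 lay within the t0 range. *NODAL* rose 22.0-fold from t0 to 36 h in the edgeR fit (log2 fold change 4.46 ± 1.05 SE, adjusted p = 0.00971). It was the 1 member of 7 called higher at this step, beside 1.32% of all 21750 genes tested. Calling a gene required a false discovery rate under 1%, a change of 2-fold or more and, in the compared libraries, an average of 100 or more normalized counts. Within a differentiation its normalized counts were 16.6-fold, 67.7-fold and 1.44-fold higher at 36 h in r1, r2 and r3. The call was lost when r1, r2 or r3 was left out, with log2 fold changes between 2.66 and 5.48 and adjusted p between 0.0445 and 0.248. Those refits called 890, 83 and 92 of all genes, against 585 in the main fit. In a fit of the 6 compared libraries alone the log2 fold change was 3.89 ± 1.14 SE with an adjusted p of 0.0912, and *NODAL* was not called. It was not called with DESeq2 (adjusted p = 0.0246) or without a count filter (0.0101) either.

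At P1 *NODAL* was read at 0.25, 0.26 and 0.09 TPM, which is 9 counts or fewer per library and below every t0 library. The fall from 36 h to P1 was called (log2 fold change -6.44 ± 1.12 SE, edgeR adjusted p = 0.00275). The call was lost when r1, r2 or r3 was left out (log2 fold changes -6.49, -4.63 and -7.26, adjusted p = 0.0354, 0.17 and 0.0416) and with the compared libraries alone (adjusted p = 0.202). From P2 onward, 36 of 38 libraries, fractions included, held 3 counts or fewer of *NODAL*, and the highest level was 0.16 TPM. Ordered by mean TPM, the conditions ran 36 h (26.4 ± 32.8, SD, n = 3), t0 (0.743 ± 0.267) and P1 (0.200 ± 0.0954). The ranges of 36 h and t0 overlapped and those of t0 and P1 did not.

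*GDF3* was read at 7.36, 4.51 and 6.44 TPM at t0 and at 34.6, 6.67 and 0.38 TPM at 36 h. Within a differentiation its normalized counts were 4.38-fold higher at 36 h in r1, 1.49-fold higher in r2 and 16.9-fold lower in r3. The groups overlapped, and no direction could be given. The mean level was 13.9 TPM at 36 h and 6.10 TPM at t0, whereas the fitted log2 fold change with the replicate block was -0.23 ± 0.63 SE (adjusted p = 0.874). Its sign turned to 1.10 without the block, to 0.64 with DESeq2 and to 1.18 without r3, with adjusted p of 0.638, 0.956 and 0.656. At P1 it was read at 1.55, 0 and 0.08 TPM, and the r1 value came from the library with high *POU5F1*. The P1 libraries of r2 and r3 held 3 counts or fewer, as did all 38 later libraries. The difference between P1 and 36 h (log2 fold change -4.78 ± 1.06 SE, adjusted p = 0.0161) missed the 1% threshold. It passed with all 47 libraries in 1 fit (adjusted p = 0.00545) and not with DESeq2 (-4.85 ± 4.02 SE, adjusted p = 0.49), without the replicate block (0.0577) or with the compared libraries alone (0.225).

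*TDGF1*, the coreceptor gene, was the most abundant member per length at t0, at 704, 639 and 607 TPM, followed by *FOXH1* at 45.9, 45.5 and 41.4 TPM. It was read at 164, 141 and 67.0 TPM at 36 h. Every 36 h library was below every t0 library, with normalized counts 4.55-fold, 4.66-fold and 9.06-fold lower in r1, r2 and r3. In the fit over all 35 whole cultures this difference was -2.60 ± 0.94 SE on the log2 scale with an adjusted p of 0.0732, so it was not called. In the fit of the 6 compared libraries alone, where the *NODAL* call was lost, it was -2.5 ± 0.24 SE with an adjusted p of 0.00997, past the threshold, as it was without r1 (-2.81 ± 0.59 SE, adjusted p = 0.00591). The summed level of 6 pluripotency markers ran from 2722 to 3062 TPM at t0 and from 854 to 2508 TPM at 36 h. Among them *SOX2* was higher at 36 h in r1 (217 against 182 TPM). The part of these markers in the lower *TDGF1* and *LEFTY2* levels was not tested.

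At P1 *TDGF1* was read at 20.03 TPM in r1 and at 0.35 and 0.12 TPM in r2 and r3. The fall from 36 h to P1 was called (log2 fold change -4.59 ± 1.07 SE, adjusted p = 0.00977). The call was lost in 6 of 10 planned refits, with adjusted p from 0.0105 with DESeq2 size factors to 0.163 without r3, 0.217 with the compared libraries alone and 0.218 without r2. Without the P1 r1 library it was -8.85 ± 1.08 SE (adjusted p = 1.06e-05), so that library set much of its size. *TDGF1* then stayed detectable: 1 of the 38 libraries from P2 onward held 3 counts or fewer, with a median of 1.23 TPM. At P2 it was read at 0.22, 0.19 and 0.18 TPM, and at P5 at 0.90, 5.75 and 1.51 TPM. The P2 and P5 ranges did not overlap, and the difference was not called (log2 fold change 3.51 ± 1.35 SE, adjusted p = 0.109). At P10 it was read at 2.94, 14.6 and 3.96 TPM. In the order of mean TPM, t0 (650 ± 49.8, SD, n = 3) and 36 h (124 ± 50.8) stood clear of each other and of all the rest, and each of the other 14 conditions overlapped its neighbour in the order.

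Reads of *TDGF1* can be divided with its processed copy *TDGF1P3* on chromosome X (chrX:110520312-110523021, plus strand). Of the distinct 75-base stretches of its annotated transcripts, 21.1% also occur in *TDGF1P3*, at the sequenced read length of 75 bases. Summed, both copies gave 840, 765 and 718 TPM at t0 and 194, 167 and 79.1 TPM at 36 h, and *TDGF1* held 93.1% to 93.6% of the summed counts in these 6 libraries.

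**Figure D2:**
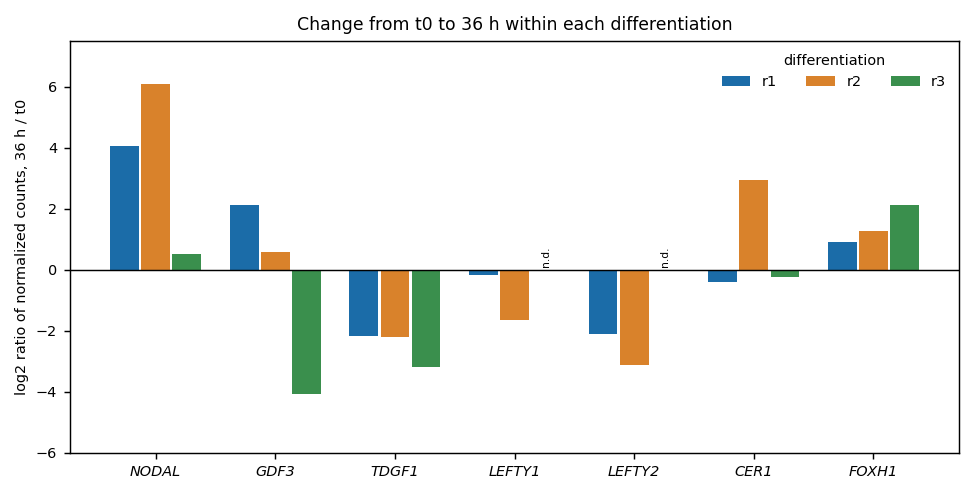
Log2 ratio of normalized counts at 36 h over t0 within each differentiation (bars, r1 to r3); n.d. marks a ratio left out because a library held 3 counts or fewer. *NODAL* and *FOXH1* were above 0 and *TDGF1* was below 0 in all 3, and *GDF3* ran from 2.13 in r1 to -4.08 in r3.

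The inhibitor genes *LEFTY1* and *LEFTY2* were low throughout. *LEFTY1* was read at 3.68, 2.5 and 2.6 TPM at t0 and at 3.51, 0.79 and 0.04 TPM at 36 h. *LEFTY2* was read at 2.88, 2.68 and 1.82 TPM at t0 and at 0.71, 0.31 and 0 TPM at 36 h. For *LEFTY2* every 36 h library was below every t0 library, whereas for *LEFTY1* the r1 library at 36 h lay within the t0 range. Neither difference was called (log2 fold change -1.14 ± 0.85 SE, adjusted p = 0.434 for *LEFTY1*, and -3.03 ± 0.96 SE, adjusted p = 0.0401 for *LEFTY2*). At P1 *LEFTY1* was read at 0, 0 and 0.02 TPM. Its fall from 36 h passed the false discovery rate and the fold change (log2 fold change -6.75 ± 1.38 SE, adjusted p = 0.00447), but its mean of 27.5 normalized counts was below the minimum of 100. Without r1, r2 or r3 it was -4.75, -6.62 and -9.43 and did not pass (adjusted p = 0.039, 0.228 and 0.0389). With both LEFTY genes summed the value was -3.83 with an adjusted p of 0.0230.

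Both genes are neighbours with near-identical stretches. *LEFTY1* shares 44.7% of its distinct 75-base stretches with other annotated genes, most of them with the overlapping entry AL117348.2, and *LEFTY2* shares 19.2%, most of them with *LEFTY1*. The division of reads is therefore uncertain, for *LEFTY1* mainly with AL117348.2, which the sum of both LEFTY genes does not include. That sum was 6.56, 5.18 and 4.42 TPM at t0 and 4.22, 1.10 and 0.04 TPM at 36 h. A low level was read again at P8, where *LEFTY1* was 0.13, 0.31 and 0.92 TPM, against 0.05, 0 and 0.10 TPM at P5. Every P8 library was above every P5 library, with 6.53, 14.0 and 32.8 expected counts. The difference was not called (log2 fold change 3.62 ± 1.15 SE, adjusted p = 0.152). The P8 EPI fractions of r1, r2 and r3 held 0.07, 0.21 and 0.80 TPM and the MES fractions 0.10, 0.24 and 0.21 TPM, with no common direction. At P10 the values were 0.15, 0 and 0 TPM.

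*CER1*, which encodes a secreted antagonist of Nodal and BMP ligands, was low at t0 and 36 h and had its highest level at P1 or later in each differentiation. It was read at 0.49, 0.20 and 0.13 TPM at t0, at 0.40, 1.5 and 0.11 TPM at 36 h, and at 0.14, 1.19 and 20.0 TPM at P1. The r3 library thus carried nearly all of the P1 signal, with 763 expected counts against 2 in r1 and 29 in r2. In the same P1 libraries *TBX6*, a presomitic mesoderm factor, was 2.92, 193 and 245 TPM. The difference between P1 and 36 h was not called (log2 fold change 4.00 ± 1.60 SE, adjusted p = 0.123).

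At P3 *CER1* was read at 4.10, 6.76 and 6.50 TPM, above every t0 and 36 h library. It was 7.81, 17.4 and 5.31 TPM at P5, 49.0, 30.3 and 6.20 TPM at P6 and 39.7, 2.26 and 5.64 TPM at P7. The r1 libraries held the highest level at both P6 and P7, while r3 stayed between 3.75 and 6.50 TPM from P2 to P7. At P8 it was 13.8, 3.54 and 1.22 TPM, at P9 0.42 and 0.64 TPM, and at P10 3.95, 0 and 0.16 TPM. Both P9 libraries lay below every P8 library, and in P10 so did r2 and r3, whereas r1, the library with high *SOX2*, lay within the P8 range. The difference between P9 with P10 and P8 was -2.82 ± 1.23 SE on the log2 scale (adjusted p = 0.144). Without the P10 r1 library it was -4.58 ± 1.4 SE (adjusted p = 0.0225), still not called. In the order of mean TPM, from P6 (28.5 ± 21.5, SD, n = 3) down to t0 (0.273 ± 0.191), each condition overlapped the next. *CER1* is also a marker of anterior and definitive endoderm. The summed level of *SOX17*, *FOXA2* and *HHEX*, which mark endoderm, was at most 0.85 TPM in any library from P1 onward, and *SOX17* was at most 0.03 TPM in all 47 libraries. Which cells held the *CER1* RNA was not tested.

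*FOXH1*, the gene of the DNA-binding partner of SMAD2 and SMAD3, lies on chromosome 8 (chr8:144473412-144476335, minus strand) and shares 31.6% of its exon bases with *KIFC2* on the other strand, so the limit on strand given for *NODAL* holds here too. It was read at 45.9, 45.5 and 41.4 TPM at t0 and at 78.1, 109 and 177 TPM at 36 h. Every 36 h library was above every t0 library, by 1.86-fold, 2.40-fold and 4.31-fold in normalized counts in r1, r2 and r3. The difference was not called (log2 fold change 1.57 ± 0.61 SE, adjusted p = 0.0941), but passed without r1 (1.71 ± 0.38 SE, adjusted p = 0.00814). At P1 *FOXH1* was read at 22.9, 8.54 and 7.41 TPM, below every t0 library, and the fall from 36 h was called (log2 fold change -3.31 ± 0.66 SE, adjusted p = 0.00337). That call was lost without r2 (adjusted p = 0.209), without r3 (-2.54, adjusted p = 0.16) and with the compared libraries alone (adjusted p = 0.205). It was 9.39, 0.84 and 2.21 TPM at P2, highest in the r1 library that stood apart, and at most 0.42 TPM from P3 onward. The fall from P2 to P5 was called (log2 fold change -5.55 ± 0.87 SE, adjusted p = 4.70e-04). It was not called without r2 or r3 (-6.07 and -6.13, adjusted p = 0.0559 and 0.0413) or with the compared libraries alone (-5.2, adjusted p = 0.0689). Without r1 it was -3.96 with an adjusted p of 0.00161 and missed only the minimum mean count, as it did without the P2 r1 library (-4.17 ± 0.77 SE, adjusted p = 0.00186). Without that library the fall from P1 to P2 was called (-3.38 ± 0.67 SE, adjusted p = 0.0036), which it was not with it (-1.97 ± 0.62 SE, adjusted p = 0.117). By mean TPM, 36 h (121 ± 50.5, SD, n = 3), t0 (44.3 ± 2.53) and P1 (12.9 ± 8.62) stood clear of each other, P1 overlapped P2, and P2 stood clear of P3.

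**Figure D3:**
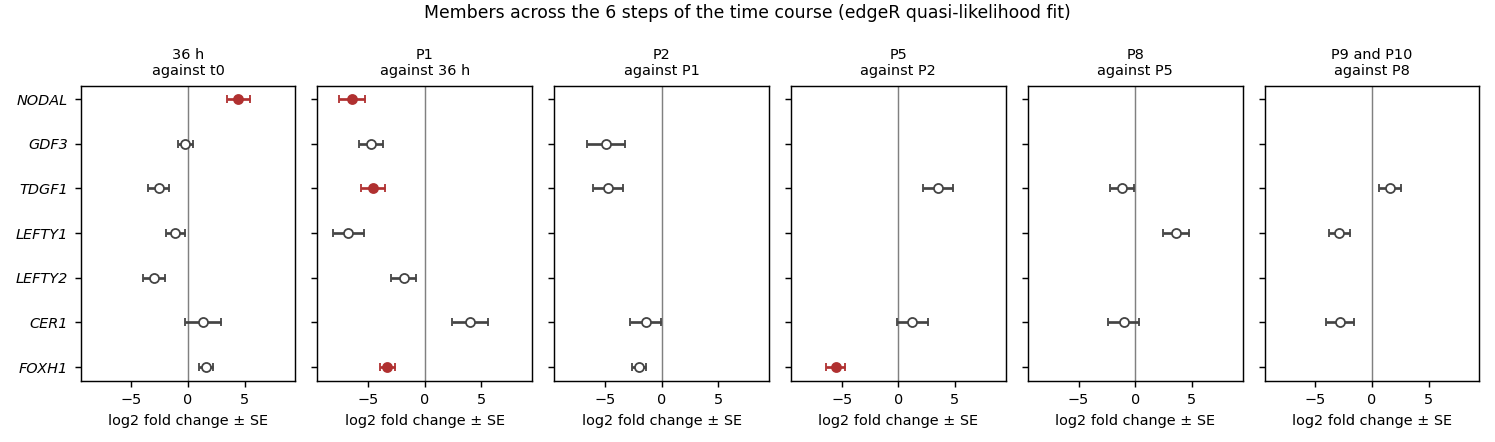
Log2 fold change ± SE of each member at the 6 steps of the time course in the edgeR quasi-likelihood fit of the 35 whole-culture libraries; filled red points were called, open points were not, and a member is drawn where a compared condition averaged 10 or more normalized counts. Called points are *NODAL* at 36 h, *NODAL*, *TDGF1* and *FOXH1* at P1, and *FOXH1* at P5.

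Over the steps, the fall from 36 h to P1 took in the most members. *NODAL*, *TDGF1* and *FOXH1* (3 of 7) were called lower, against 0.699% of all genes tested. The median log2 fold change over all 7 members was -4.59, beside -0.01 over all genes. The same 3 were called without the P1 r1 library, among 809 of 21727 genes. Of 6 pluripotency markers, all but *ZFP42* were lower at P1 in each differentiation. In r1 *ZFP42* was 90.37 TPM at 36 h and 92.25 TPM at P1. *NANOG* was 87.7, 43.9 and 1.87 TPM at 36 h and 26.4, 0.07 and 0 TPM at P1 in r1, r2 and r3. The summed level of the 6 ran from 854 to 2508 TPM at 36 h and from 156 to 1376 TPM at P1, with overlap. The part of these markers in the members' fall was not tested. Leaving out r1 throughout kept the calls of *TDGF1* and *FOXH1* and lost that of *NODAL*, with 952 of all genes called. Calls of members fell to 0 when r2 or r3 was left out or when only the 6 compared libraries were fitted. Those refits called 2, 12 and 0 of all genes, against 259 in the main fit, so hardly any gene could be called there.

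From P1 to P2, edgeR called 0 of 7 members (0.0276% of all genes), 3 had an unadjusted p under 0.05 (17.1% of all genes), and DESeq2 called 1, *TDGF1*, among 165 of all 21750 genes. From P2 to P5, 1 of 7 was called lower (0.552% of all genes), *FOXH1*. From P5 to P8, edgeR and DESeq2 each called 0 of 7 (0.0092% of all genes in edgeR and 155 genes in DESeq2), and 1 had an unadjusted p under 0.05 in edgeR (13.3% of all genes). From P8 to P9 and P10, edgeR and DESeq2 each called 0 of 7, 3 had an unadjusted p under 0.05 in edgeR (26.2% of all genes), and 1.25% of all genes were called in edgeR and 739 genes in DESeq2.

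At 36 h the differentiations differed in marker genes as well as in the members. In r1, r2 and r3 the pluripotency factor *NANOG* was 87.7, 43.9 and 1.87 TPM and *SOX2* was 217, 21.3 and 4.14 TPM. *TBXT* was 62.3, 477 and 493 TPM, and *MSGN1*, a presomitic mesoderm factor, was 0.56, 93.4 and 404 TPM. The r1 library, highest in *NANOG*, was also highest in *GDF3*, *TDGF1* and both LEFTY genes. The r3 library, highest in *MSGN1*, was highest in *FOXH1* and lowest in the other 6 members, and *NODAL* was highest in r2. The part of these markers in the members' values was not tested.

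In the fractions, *CER1* and *TDGF1* were the 2 members with enough counts to be tested. *CER1* was read at 3.85, 10.8 and 3.48 TPM in P5 EPI and at 19.8, 41.4 and 6.74 TPM in P5 MES. The MES library was the higher in each pair, by 5.02-fold, 3.90-fold and 1.99-fold in normalized counts, while the groups overlapped. At P8 *CER1* was read at 6.62, 2.78 and 1.88 TPM in EPI and at 49.4, 5.49 and 1.98 TPM in MES, or 7.46-fold, 1.93-fold and 1.02-fold higher in MES. Thus MES exceeded EPI in every pair at P5 and in r1 and r2 at P8, while r3 at P8 was nearly equal. The P5 and P8 pairs came from the same differentiations and are not independent.

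*TDGF1* was read at 0.74, 5.82 and 4.13 TPM in P5 EPI and at 0.51, 2.41 and 0.43 TPM in P5 MES. It was lower in MES in each pair, by 2.44-fold, 2.66-fold and 6.55-fold in normalized counts. At P8 it was read at 1.27, 1.20 and 2.06 TPM in EPI and at 1.01, 2.20 and 3.11 TPM in MES, with no common direction.

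Neither gene was called. In the edgeR fit of the 12 fraction libraries the MES to EPI difference at P5 was 1.71 ± 0.85 SE for *CER1* (adjusted p = 0.249) and -1.69 ± 0.52 SE for *TDGF1* (adjusted p = 0.0837) on the log2 scale. At P8 it was 1.81 ± 0.91 SE (adjusted p = 0.466) and 0.05 ± 0.51 SE (adjusted p = 0.982). With the replicate number taken as a block within each passage, so that both fractions of a culture were paired, the P5 values were 1.81 ± 0.50 SE for *CER1* (adjusted p = 0.0423) and -1.77 ± 0.35 SE for *TDGF1* (adjusted p = 0.0167), still above the 1% threshold. The change in the MES to EPI difference from P5 to P8 was 1.74 ± 0.73 SE for *TDGF1* (unadjusted p = 0.0420, adjusted p = 0.816) and 0.11 ± 1.20 SE for *CER1* (adjusted p = 0.998).

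For these 3 comparisons edgeR called 0% of the 18885 genes tested, and so 0 members. DESeq2 also called 0 members. At an unadjusted p under 0.05, edgeR had 1, 0 and 1 of the members at P5, at P8 and for their difference, among 4894, 2261 and 1152 of all genes. DESeq2 called 678, 54 and 1 genes, and the block within each passage 306, 0 and 0.

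**Figure D4:**
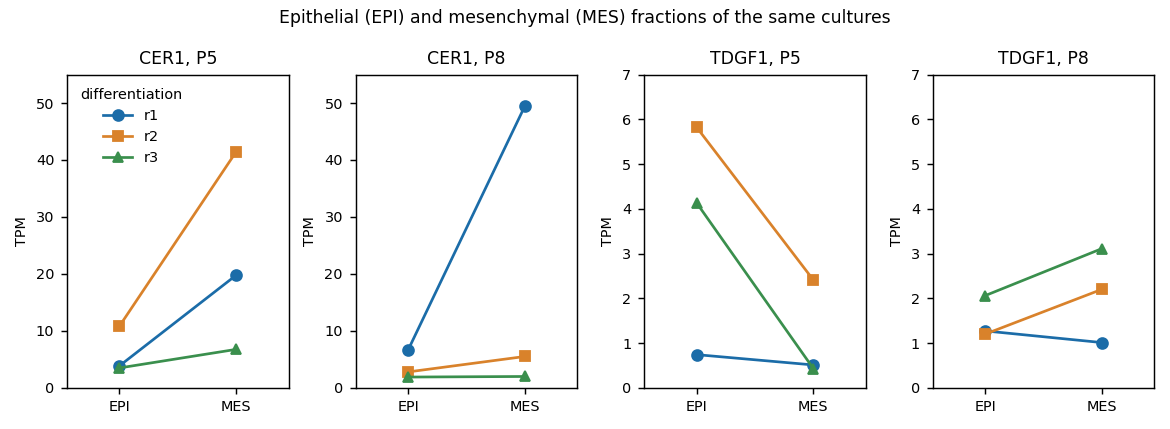
TPM of *CER1* and *TDGF1* in the EPI and MES fractions at P5 and P8, with a line joining both fractions of a differentiation (r1 to r3). *CER1* lines rise towards MES in all pairs but r3 at P8, which is nearly level, and *TDGF1* lines fall towards MES at P5 in all 3 pairs.

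Of 32 other genes of the Nodal and activin pathway, 29 were tested in the time course. From t0 to 36 h, 4 were called higher, beside 1.32% of all genes. They included the target *MIXL1* (log2 fold change 9.56 ± 1.3 SE, adjusted p = 2.97e-05), the activin subunit gene *INHBB* (6.67 ± 1.57 SE, adjusted p = 0.00619) and the activin antagonist gene *FST* (5.93 ± 0.96 SE, adjusted p = 2.18e-04). *MIXL1* and *FST* did not overlap between the groups, with 234 to 1319 TPM against 0.85 to 1.4 TPM and 537 to 754 TPM against 9.72 to 10.9 TPM. *INHBB* was 0.03, 1.6 and 11.4 TPM in the lowest, median and highest 36 h library, so 1 of the 3 lay within the t0 range of 0.01 to 0.05 TPM. Of the 4 receptors, 3 SMAD transducers, 6 partners and feedback regulators and 2 convertases, 5 had an unadjusted p under 0.05 at this step, beside 26.1% of all genes, and these 5 were not among the calls. From 36 h to P1, 1 of 29 was called, the SMAD corepressor gene *SKIL* (-2.78 ± 0.39 SE, adjusted p = 2.23e-04), lower at P1 beside 0.699% of all genes. From P2 to P5, *SMAD3* was called higher (1.10 ± 0.24 SE, adjusted p = 0.00665) beside 0.818% of all genes, and *FST* lower (-4.78 ± 0.93 SE, adjusted p = 0.00280) beside 0.552%. From P8 to P9 and P10, the inhibitory SMAD gene *SMAD7* was called higher (1.70 ± 0.37 SE, adjusted p = 0.00677) beside 0.772% of all genes. *SMAD7* was 5.42 to 13.45 TPM at P8 and 31.65 to 32.62 TPM at P9. At P10 it was 12.82 to 58.24 TPM, and the lowest P10 library lay within the P8 range. None of the 4 receptor genes was called from 36 h to P1, and 1 had an unadjusted p under 0.05 (23.4% of all genes). This was the type II receptor gene *ACVR2A*, with 8.73 to 15.4 TPM at 36 h and 6.25 to 8.43 TPM at P1 (log2 fold change -0.68 ± 0.22 SE, adjusted p = 0.0496). The values of *ACVR2B*, *ACVR1C* and *ACVR1B* were -0.33 ± 0.22, -0.09 ± 0.58 and -0.04 ± 0.14 SE.

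Across the 16 conditions, mean log2 CPM (counts scaled to library size) of *NODAL* had a Pearson correlation of 0.927 with *FOXH1* and 0.926 with *GDF3*, and *TDGF1* one of 0.899 with *GDF3*. *LEFTY1* and *LEFTY2* correlated at 0.914, and *CER1* ran from -0.505 to -0.602 with the other 6. These are descriptions over conditions that share cell line, culture and differentiations. *NODAL* held 3 counts or fewer in 36 of 38 libraries from P2 onward and *GDF3* in 38 of 38. Their correlations therefore rest mainly on t0, 36 h and P1 against the rest. Among 15115 genes averaging 100 or more normalized counts in a condition, the genes most like *GDF3* were *LNCPRESS2* (0.995), *TCL1B* (0.994) and *LINC-ROR* (0.994). Those most like *TDGF1* were *TDGF1P3* (0.984), *TPST2* (0.959) and *PLPP2* (0.955), and those most like *NODAL* were *LINC01356* (0.981), *FZD4* (0.977) and *PLA2G2A* (0.977). For *FOXH1* they were *CDA* (0.994), ENSG00000283147 (0.988) and *SCGB3A2* (0.987), and for *CER1* *HECTD2* (0.911), *SLC35E3* (0.904) and *GABRG3* (0.899). For *LEFTY1* they were *MIR205HG* (0.953), AC104794.2 (0.949) and *RAPGEF4* (0.947), and for *LEFTY2* AC104758.3 (0.959), *JAKMIP2-AS1* (0.956) and *RASGRP2* (0.950).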

How the data were processed

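Poly(A) RNA from WA09 cells was sequenced as 75-base single-end reads. The authors deposited 1 gene table per library with expected counts and TPM values. Per the submitters' processing notes these came from cutadapt 1.16, STAR 2.5.2b and RSEM 1.3.0 with GRCh38; annotation release and strand setting were not given in the sources used here. Expected counts are RSEM's estimated counts, divided between genes that share reads, and the deposited TPM values are scaled by transcript length and sum to a fixed total, so a large change in other genes moves them.

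Symbols came from GENCODE 29 (57447 of 58051 IDs matched). The members and gene lists were chosen with earlier results of these data known. Text names the 7 members, up to 3 called pathway genes per direction and comparison (1 such gene is not reported here, and *FST* was named in addition, after its values were seen), and the 3 genes most like each member in mean log2 CPM (TMM, prior count 2). Totals of 13029491 to 64082859 counts per library set the precision, and values of 3 counts or fewer were treated as the floor.

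Expected counts were rounded and tested with the quasi-likelihood test of edgeR 4.0.16 (R 4.3.3, filterByExpr, TMM, Benjamini-Hochberg over all genes tested). The 35 whole-culture libraries and the 12 fraction libraries were fitted separately, each with the replicate number as a block. The SE is the log2 fold change divided by the root of the F statistic. DESeq2 1.42.0 and other settings were tried as alternatives. The scripts were tested on simulated data. The series describes each number as 1 experiment run through the time points. Deviations of same-numbered libraries correlated at 0.196 on average over pairs of conditions (other numbers -0.097), at -0.008 between t0 and 36 h, 0.203 between 36 h and P1 and 0.002 between P2 and P5, and at 0.654 and 0.781 between fractions at P5 and P8. No 2 libraries of a condition agreed within sampling noise.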

Additional observations from a re-analysis of the deposited data

How the results depend on the processing

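The number of members called is given against 7. From t0 to 36 h it was 1 and became 0 with DESeq2 and 0 without a count filter, where *NODAL* had adjusted p values of 0.0246 and 0.0101; with single replicate numbers left out it ran from 0 to 2. The member called also changed: with compared libraries only it was *TDGF1*, and without replicate 1 *TDGF1* and *FOXH1*, with *NODAL* lost in both (adjusted p = 0.0912 and 0.106). Over all genes the main fit called 585, DESeq2 875, no count filter 526 and compared libraries only 168. Leaving out r1, r2 or r3 gave 890, 83 and 92 genes. From 36 h to P1 the number of members was 3. It rose to 4 with all 47 libraries in 1 fit or a false discovery rate under 5% (*GDF3* added) and to 4 without the minimum mean (*LEFTY1* added). It fell to 2 with DESeq2 size factors or no count filter (*TDGF1* lost) and to 0 with compared libraries only. With replicate numbers left out it ran from 0 to 2. Over all genes the main fit called 259, all 47 libraries in 1 fit 426, DESeq2 size factors 251, no count filter 219 and compared libraries only 0. Leaving out r1, r2 or r3 gave 952, 2 and 12 genes. From P1 to P2 the number of members was 0, became 1 with DESeq2 (*TDGF1*) and 1 without library P2 r1 (*FOXH1*), and ran from 0 to 1 with replicate numbers left out. Over all genes the main fit called 6, DESeq2 165 and the fit without library P2 r1 256. Leaving out r1, r2 or r3 gave 506, 0 and 0 genes. From P2 to P5 the number of members was 1, fell to 0 with compared libraries only and to 0 without library P2 r1, and was 0 with any replicate number left out, while the log2 fold change of *FOXH1* stayed between -3.96 and -6.13. Over all genes the main fit called 298 and compared libraries only 1, so hardly any gene could be called in the latter. Without library P2 r1 it was 369 genes, and leaving out r1, r2 or r3 gave 806, 10 and 2. Without the replicate block, 2 members were called from 36 h to P1 in place of 3, because *TDGF1* had an adjusted p of 0.0179. The block also moved the count over all genes from 37 to 271 for P9 and P10 against P8 and from 3 to 6 for P2 against P1. The other comparisons stayed at 0 members in every setting tried. The 5 log2 fold changes of called members, and that of *LEFTY1* from 36 h to P1, kept their sign in all 64 refits made of them. That of *GDF3* from t0 to 36 h, which was not called, did not: it ran from -1.20 to 1.18. Leaving out library P1 r1, P2 r1 or P10 r1, and the block within each passage, were chosen after seeing the data. The 16 conditions gave each member the same highest condition in TPM and normalized counts, and 6 of the 21 genes named as most like a member were named again over the 47 libraries. Causes of these shifts were not tested. Members with 3 counts or fewer in most late libraries cannot show differences there, and the depth of the LEFTY genes limits their comparison at P8.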
